A study of Drosophila melanogaster with 23 samples.

Results

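The comparison described here set larvae in which lysine 36 of both main forms of histone H3 was replaced by arginine against larvae of a histone control genotype, at the first larval instar of Drosophila melanogaster. It rests on 8 libraries, 4 labelled H3.3K36RH3.2K36R (called combined H3K36R) and 4 labelled H3.3CtrlH3.2HWT (called histone control), of the 23 libraries of 6 genotypes in the series. Its members are the 14365 of 17606 listed genes that passed a filter on low counts. Combined H3K36R larvae carry the K36R change in the replication-independent H3.3 and in the replication-coupled H3.2. Per the labels, histone control larvae have a control form of H3.3 and HWT for H3.2. In fly histone genetics HWT commonly names a transgenic array of wild-type histone genes that stands in for the deleted endogenous cluster. The labels used here do not spell out the constructs, the H3.3 alleles or the parental stocks. Both groups were whole first-instar larvae, pooled male and female, from crosses kept at 25 °C, with 25 to 30 larvae per RNA sample. Libraries were of total RNA. The other 15 libraries, used here for the shared estimate of spread and for values set side by side, were H3.3K36R alone with HWT for H3.2 (4), H4K16R with control H3.3 (4), a Set2 mutant (4) and the stock yw (3).

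Lysine 36 of histone H3 is methylated over the bodies of transcribed genes. In flies Set2 makes the trimethylated form, which trails elongating RNA polymerase II, and NSD and Ash1 make lower methylation states, Ash1 at developmental genes where it counters Polycomb silencing. Readers include the chromodomain protein MSL3 of the male dosage compensation complex, which spreads along the X chromosome of males. H3.2 is made in S phase from the histone cluster and H3.3 all through the cell cycle from the single genes His3.3A and His3.3B, so a change of both would leave no major H3 with a methylatable lysine 36 apart from protein supplied by the mother.

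Library totals of the 8 libraries ran from 115680771 counts (histone control replicate 1) to 156376364 (histone control replicate 4). No library repeated another of its group: chi-square per degree of freedom between libraries of 1 group was 22.9 to 246, where counting error alone gives about 1. The labels do not say that replicates came from separate crosses, so p-values measure the spread between these libraries only, and some of that spread may be technical. Replicate 3 held 13 of the 20 outlying values found among the genes and indices described below, and without replicate 3 of both groups 4843 genes were called. RNA was from whole larvae, so fewer cells of a type and less RNA per cell cannot be told apart in any value below. Values are CPM, read counts set to a common library size and corrected for library composition. Log2 fold changes are combined H3K36R minus histone control, as estimate ± SE, from edgeR's quasi-likelihood test. A gene was called at a Benjamini-Hochberg adjusted p below 0.05.

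Combined H3K36R larvae differed from histone control larvae at 5638 of the 14365 genes tested, which is 39.2%. Of these, 2361 rose (16.4% of genes tested) and 3277 fell (22.8%). Most changes were small, with a median absolute log2 fold change of 0.70 among called genes and a median of -0.02 over all genes. At least 2-fold changes were found at 630 genes that rose (4.39%) and 1122 that fell (7.81%). At 6124 genes (42.6%) the 4 libraries of one group lay wholly above or below the 4 of the other, and 5077 of the called genes were among them. The 4 combined H3K36R libraries lay above all other 19 libraries of the series at 1649 genes (11.5%) and below all of them at 2007 (13.97%). Counts for gene lists below are to be set beside these shares: 16.4% rose, 22.8% fell, 11.5% lay above and 13.97% below all others.

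The histone and writer genes themselves moved little. Set2 had 78.98, 75.7, 73.7 and 77.7 CPM in the combined H3K36R libraries, against 72.3, 71, 76.6 and 73.5 CPM in the histone control libraries, and the groups overlapped. His3.3A, which with His3.3B encodes H3.3, had 37.9, 39.2, 46.7 and 36.4 CPM in the combined H3K36R libraries, against 27.1, 36.2, 38.4 and 36.5 CPM in the histone control libraries, with a log2 fold change of 0.21 ± 0.11 that did not pass (adjusted p = 0.153). His3.3B rose by 0.32 ± 0.06 (adjusted p = 0.000402). A replication-independent H4 gene, His4r, rose by 0.46 ± 0.09 (adjusted p = 0.000189). Counts per gene do not show the K36R codon, so these levels check no label. Among 11 writers, erasers and readers of H3K36, 2 rose, 2 fell and 7 did not pass. With libraries left out, 0 fell without control replicate 3 and 1 fell without combined H3K36R replicate 1 or 2 or control replicate 4. The methyltransferase gene ash1 rose, with 89.1 to 104 CPM in combined H3K36R against 65.6 to 67.8 CPM in the control (log2 fold change 0.52 ± 0.08). The MSL3 gene, msl-3, rose, with 25.2 to 29.3 CPM in combined H3K36R against 19.97 to 21.8 CPM in the control (log2 fold change 0.41 ± 0.09). The H3K36 dimethyltransferase gene NSD had a log2 fold change of -0.12 ± 0.08 and did not pass (adjusted p = 0.219).

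Genes almost silent in histone control larvae and read in combined H3K36R larvae led the rises. A mean under 0.5 CPM in the control with at least 5 CPM in combined H3K36R was found at 4 called genes, a pair of thresholds chosen after the values were seen. Jig (3R:14560935-14561521 in the BDGP6.54 annotation) had 66.5, 133, 52.8 and 112 CPM in the combined H3K36R libraries, against 0.0419, 0.273, 1.47 and 0.205 CPM in the histone control libraries, a log2 fold change of 7.50 ± 1.11 (adjusted p = 3.3e-05). Every combined H3K36R library stood far above every control library, and Jig averaged 0.8102 CPM in H3.3K36R alone, 1.17 in H4K16R, 15.4 in the Set2 mutant and 0.0868 in yw. Without control replicate 3, the highest of its group, the log2 fold change of Jig was 9.01 and that of SteXh:CG42398 was 7.06. SteXh:CG42398, a gene of the Stellate repeats, had 15.6, 14.5, 11.7 and 13.01 CPM in the combined H3K36R libraries, against 0.134, 0.0152, 0.325 and 0.153 CPM in the histone control libraries. Its 4 combined H3K36R libraries were close to each other and its control libraries near 0 (6.43 ± 0.78, adjusted p = 2.64e-06). It lies on an unplaced scaffold and has near-identical copies, so how reads were split among them is uncertain. The other two were CG12493 and lncRNA:CR45585. CG12493 had 12.1, 11.99, 10.4 and 14.4 CPM in the combined H3K36R libraries, against 0.109, 0.0911, 0.145 and 0.128 CPM in the histone control libraries, without overlap and with a log2 fold change of 6.67 ± 0.66. At lncRNA:CR45585 the ranges were 3.66 to 5.96 CPM in combined H3K36R and 0 to 0.179 CPM in the control, and the log2 fold change of 6.29 ± 0.84 was 7.74 without control replicate 4. The reverse, under 0.5 CPM in combined H3K36R with at least 5 CPM in the control, was found at 3 called genes, among them mfr, described below.

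**Figure D1:**
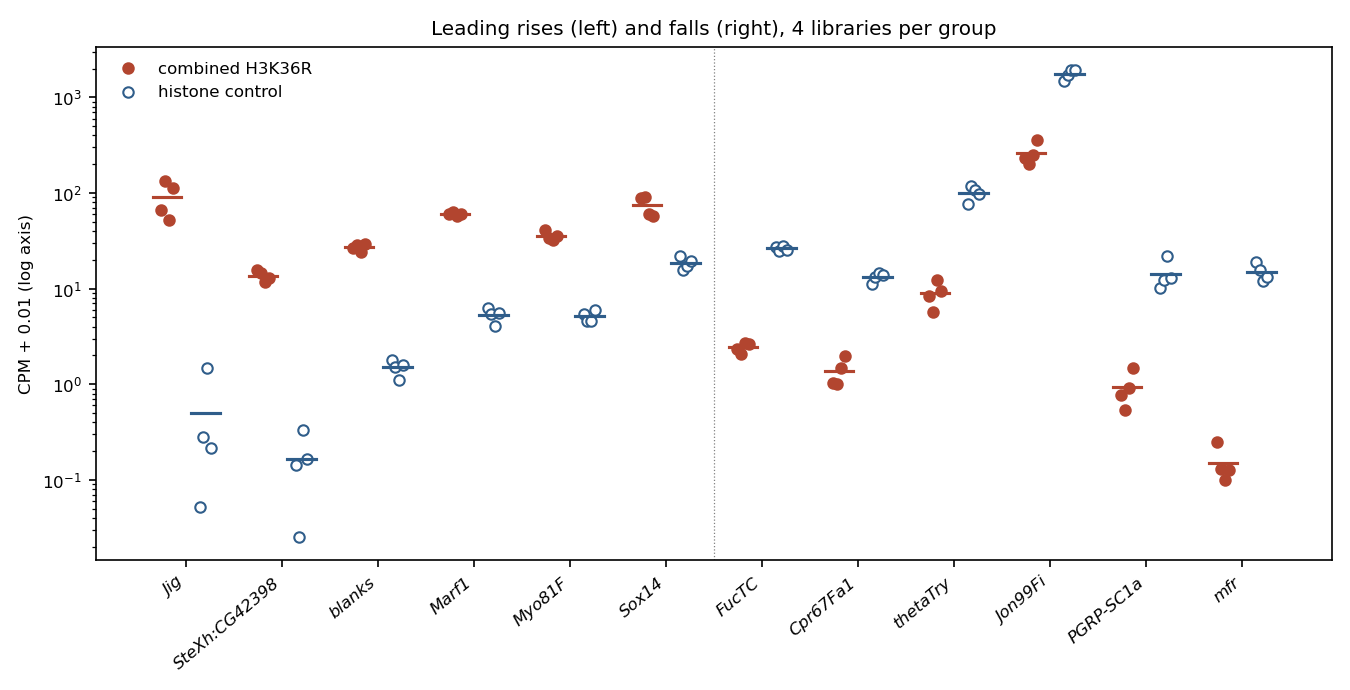
CPM on a log axis in each of the 4 combined H3K36R libraries (left of each pair, filled) and the 4 histone control libraries (right, open) for 12 leading genes; horizontal bars are group means, and 0.01 CPM was added to each value so that 0 can be drawn. Separate groups were required by the rule for leading genes. The genes run from Jig and SteXh:CG42398 at the high end of the rises to mfr and PGRP-SC1a at the far end of the falls.

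Regulators and germline genes were among the other leading rises. The 15 largest rises and 15 largest falls were taken among 2681 eligible genes, 1104 that rose and 1577 that fell. Eligible genes were called, had a mean of at least 5 CPM over the 8 libraries, a named symbol and no overlap between the groups. Separation of the groups at the leading genes, Jig and SteXh:CG42398 included, therefore follows from this rule. The siRNA-binding protein gene blanks, known from spermatid maturation, had 26.9, 28.4, 24.1 and 29.6 CPM in the combined H3K36R libraries, against 1.8, 1.51, 1.09 and 1.59 CPM in the histone control libraries (log2 fold change 4.19 ± 0.25, adjusted p = 1.18e-10). Marf1 (2L:22308755-22368796), whose protein controls mRNA stability and meiosis in the ovary, had 60.3, 62.8, 57.8 and 60.8 CPM in the combined H3K36R libraries, against 6.34, 5.39, 4.08 and 5.58 CPM in the histone control libraries (3.50 ± 0.29, adjusted p = 2.44e-08). Both genes kept a narrow range in each group, with every combined H3K36R library far above any control library. The germline zinc finger gene mamo rose, with 9.89 to 12.2 CPM in combined H3K36R against 0.422 to 1.52 CPM in the control (log2 fold change 3.46 ± 0.50). The Tudor-domain gene krimp of the piRNA pathway rose, with 8.81 to 12.5 CPM in combined H3K36R against 1.65 to 2.34 CPM in the control (log2 fold change 2.33 ± 0.19). Myo81F (3R:567076-2532932), an unconventional myosin gene within the pericentric heterochromatin of chromosome arm 3R, had 41.4, 34, 32.3 and 35.3 CPM in the combined H3K36R libraries, against 5.38, 4.61, 4.55 and 5.99 CPM in the histone control libraries (2.80 ± 0.16, adjusted p = 7.15e-11). Its groups were far apart, and the other genotypes averaged 4.67 CPM in H3.3K36R alone, 4.72 in H4K16R, 5.56 in the Set2 mutant and 4.87 in yw.

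Hormone and metabolic genes also led. Sox14, an ecdysone-induced transcription factor gene, had 88.7, 89.9, 60.97 and 57.05 CPM in the combined H3K36R libraries, against 21.8, 15.5, 17.1 and 19.7 CPM in the histone control libraries (2.00 ± 0.24, adjusted p = 1.49e-06). The clock bZIP gene vri rose, with 63.2 to 99.5 CPM in combined H3K36R against 12.9 to 28.4 CPM in the control (log2 fold change 2.17 ± 0.31). It averaged 28.6 CPM in H3.3K36R alone, 18.5 in H4K16R, 50.7 in the Set2 mutant and 16.4 in yw. The P450 gene Cyp4ac3 rose, with 53.9 to 92.2 CPM in combined H3K36R against 10.7 to 13.4 CPM in the control (log2 fold change 2.72 ± 0.26). The kainate receptor gene Ekar rose, with 9.94 to 13.2 CPM in combined H3K36R against 1.49 to 2.56 CPM in the control (log2 fold change 2.54 ± 0.23). The lipase gene Lip1 rose, with 22.3 to 29.9 CPM in combined H3K36R against 4.13 to 7.83 CPM in the control (log2 fold change 2.07 ± 0.55). Prat2, a gene of the first step of purine synthesis, rose, with 29.6 to 36.1 CPM in combined H3K36R against 5.06 to 12.2 CPM in the control (log2 fold change 1.96 ± 0.35). Sclp and lncRNA:Irar, both rising by more than 2 on the log2 scale, had 2.23 and 2.76. In 14 of the 15 leading rises, all but vri, the 4 combined H3K36R libraries lay above every other library of the series. That was so at 62.6% of all genes called higher.

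The leading falls were gut, cuticle, immune and fertility genes. The ferlin gene mfr (3L:8905918-8912671), known from the breakdown of the sperm membrane at fertilization, had 0.238, 0.1202, 0.0887 and 0.116 CPM in the combined H3K36R libraries, against 18.8, 15.6, 11.9 and 13.2 CPM in the histone control libraries (-6.73 ± 0.44, adjusted p = 1.19e-09). Every combined H3K36R library was near 0, yet mfr also averaged 0.148 CPM in H3.3K36R alone, 22.5 in H4K16R, 0.0275 in the Set2 mutant and 0.226 in yw, and it was high in histone control and H4K16R larvae. The fucosyltransferase gene FucTC (X:23008766-23011303) had 2.31, 2.05, 2.71 and 2.604 CPM in the combined H3K36R libraries, against 27.5, 24.7, 27.7 and 25.3 CPM in the histone control libraries (-3.44 ± 0.14, adjusted p = 8.97e-13). Its other means were 2.07 CPM in H3.3K36R alone, 21.5 in H4K16R, 5.43 in the Set2 mutant and 32.5 in yw. CG1304 likewise had 3.41, 3.69, 4.43 and 5.8 CPM in the combined H3K36R libraries, against 69.7, 83.1, 78.2 and 63.5 CPM in the histone control libraries, with means of 5.18 CPM in H3.3K36R alone, 94.8 in H4K16R, 3.905 in the Set2 mutant and 4.39 in yw. These 3 genes were low in H3.3K36R larvae whose H3.2 is not labelled K36R, and mfr and CG1304 in yw as well. Of the 15 leading falls, 9 had all 4 combined H3K36R libraries below every other library; the exceptions were mfr, FucTC, Alp7, LysC, Dro and Drsl2. The call of Dro was lost when some single libraries were left out (adjusted p up to 0.104).

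Digestive genes made up much of the rest. Alp7, an alkaline phosphatase gene, had 0.408, 0.127, 3.73 and 1.18 CPM in the combined H3K36R libraries, against 11.8, 20.3, 31.1 and 15.7 CPM in the histone control libraries (-3.85 ± 0.88), and yw averaged 1.39 CPM. Without combined H3K36R replicate 3, its highest library, the log2 fold change of Alp7 was -5.08. The trypsin gene thetaTry had 8.41, 5.63, 12.4 and 9.43 CPM in the combined H3K36R libraries, against 76, 118, 108 and 96.8 CPM in the histone control libraries (-3.47 ± 0.24, adjusted p = 1.83e-09). Jon99Fi, a Jonah chymotrypsin-like protease gene, had 233, 203, 249.7 and 357 CPM in the combined H3K36R libraries, against 1484, 1732, 1919.9 and 1913 CPM in the histone control libraries (-2.76 ± 0.25). In all 3 genes each combined H3K36R library was below each control library, as the rule for leading genes required. Log2 fold changes were -2.58 ± 0.26 at Jon65Ai, -2.49 ± 0.26 at Jon65Aii and -2.53 ± 0.35 at LysC, annotated as a pseudogene. LysC averaged 7.71 CPM in combined H3K36R and 4.33 in yw. PGRP-SC1a, for an amidase that degrades bacterial peptidoglycan, had 0.5301 to 1.46 CPM in combined H3K36R and 10.2 to 21.9 CPM in the control (-3.96 ± 0.64). Drsl2, of the Drosomycin family of antifungal peptides, fell, with 0.843 to 4.202 CPM in combined H3K36R against 9.12 to 16.2 CPM in the control (log2 fold change -2.59 ± 0.43). In yw, Drsl2 averaged 0.15 CPM and PGRP-SC1a 2.53 CPM, both also below the control. The yw means of Jon99Fi, Jon65Ai and Jon65Aii were 1318, 266 and 170 CPM.

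Among the 10 genes with the lowest p were several with no name beyond their number. CG7692 had 136, 136, 125 and 137 CPM in the combined H3K36R libraries, against 25.8, 21.7, 25.9 and 29.1 CPM in the histone control libraries (2.38 ± 0.12, adjusted p = 1.04e-11). CG12491 had 0.883, 0.728, 1.12 and 1.51 CPM in the combined H3K36R libraries, against 16.6, 22.1, 23.3 and 19.2 CPM in the histone control libraries (-4.26 ± 0.21), but yw averaged 0.0174 CPM and the Set2 mutant 0.629. CG14662 rose, with 10.4 to 16.6 CPM in combined H3K36R against 0.896 to 1.42 CPM in the control (log2 fold change 3.55 ± 0.22). CG34301 fell, with 9.56 to 11.9 CPM in combined H3K36R against 37.7 to 51.5 CPM in the control (log2 fold change -2.08 ± 0.12). The glutathione transferase gene GstE13 fell, with 5.68 to 7.08 CPM in combined H3K36R against 17.6 to 18.7 CPM in the control (log2 fold change -1.51 ± 0.09). The long noncoding RNA lncRNA:CR46472, on the X at X:21520175-21527105, rose, with 16.4 to 19.4 CPM in combined H3K36R against 0.697 to 1.02 CPM in the control (log2 fold change 4.35 ± 0.25). It averaged 6.43 CPM in H3.3K36R alone, 1.07 in H4K16R, 1.225 in the Set2 mutant and 4.14 in yw. None of the genes in this paragraph overlapped between combined H3K36R and the control.

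Called genes with the highest mean CPM moved less. Another long noncoding RNA, lncRNA:CR42862, rose, with 4744 to 5940.5 CPM in combined H3K36R against 2097 to 2844 CPM in the control (log2 fold change 1.07 ± 0.15). The muscle actin gene Act57B fell, with 4757 to 6442 CPM in combined H3K36R against 6993 to 10254 CPM in the control (log2 fold change -0.73 ± 0.15). The cytoplasmic actin gene Act5C fell, with 1879 to 2352 CPM in combined H3K36R against 3286 to 4014 CPM in the control (log2 fold change -0.81 ± 0.09). The mitochondrial ADP/ATP translocase gene sesB fell, with 1946 to 2462 CPM in combined H3K36R against 3643 to 4088 CPM in the control (log2 fold change -0.81 ± 0.08). At Act5C and sesB all 4 combined H3K36R libraries were below every control library. Changes on the log2 scale were -0.32 ± 0.07 at Vha16-1, for the proton-carrying ring of the vacuolar ATPase, -0.40 ± 0.10 at the larval myosin light chain gene Mlc2 and -0.69 ± 0.15 at the gut protease gene Jon65Aiv. RNaseMRP:RNA, the RNA of an enzyme that cuts the ribosomal RNA precursor, rose, with 3047 to 3279.9 CPM in combined H3K36R against 2305 to 2579.7 CPM in the control (log2 fold change 0.36 ± 0.08).

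Genes that build ribosomes fell together. Small nucleolar ribonucleoproteins guide the modification and cutting of ribosomal RNA, which RNA polymerase I transcribes in the nucleolus. Of 24 snoRNP and pre-rRNA factor genes tested, 2 rose, 22 fell and 0 did not pass, with a median log2 fold change of -1.32. The core protein gene hoip had 7.996, 9.34, 28.2 and 15.9 CPM in the combined H3K36R libraries, against 59.9, 67.8, 95.5 and 66.4 CPM in the histone control libraries (-2.24 ± 0.34, adjusted p = 3.5e-05). Every control library of hoip was above every combined H3K36R library. The box C/D scaffold gene nop5 had 33.6, 33.7, 66.5 and 51.5 CPM in the combined H3K36R libraries, against 169, 162, 197 and 168 CPM in the histone control libraries (-1.91 ± 0.21), with the same separation. In the H/ACA particles, log2 fold changes were -1.76 ± 0.23 at NHP2 and -1.68 ± 0.20 at Nop60B, the pseudouridine synthase gene. The 2 that rose were Non1 and Nop17l. Non1, a nucleolar GTP-binding protein gene, rose, with 2098 to 2822 CPM in combined H3K36R against 959.8 to 1247 CPM in the control (log2 fold change 1.17 ± 0.14). Nop17l rose, with 111 to 118 CPM in combined H3K36R against 86.5 to 99.6 CPM in the control (log2 fold change 0.33 ± 0.06). In 22 of the 24 the combined H3K36R libraries lay below all 19 other libraries.

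Of 236 annotated snoRNA genes tested, which encode the guide RNAs, 1 rose, 72 fell and 163 did not pass, with a median of -0.79. The share that fell was 30.51%, beside 22.8% over all genes. In flies most snoRNAs sit in introns of host genes, so unstranded or intronic reads of a host could add to their counts. Of RNA polymerase I subunit and growth control genes, 17 in number, 3 rose, 8 fell and 6 did not pass. The polymerase subunit gene Polr1B had 13.3, 15.9, 24.3 and 17.1 CPM in the combined H3K36R libraries, against 48.4, 45.6, 63.1 and 55.1 CPM in the histone control libraries (-1.59 ± 0.21, adjusted p = 4.24e-06). Polr1H fell, with 2.52 to 4.71 CPM in combined H3K36R against 8.399 to 11.7 CPM in the control (log2 fold change -1.64 ± 0.21). Polr1E fell, with 8.52 to 13.98 CPM in combined H3K36R against 20.6 to 26.1 CPM in the control (log2 fold change -1.22 ± 0.23). None of the 3 genes overlapped between the groups. Against that direction, Thor, whose 4E-BP protein restrains cap-dependent translation, had 1042, 1088, 805 and 651 CPM in the combined H3K36R libraries, against 404, 379, 267 and 393 CPM in the histone control libraries (1.31 ± 0.29, adjusted p = 0.00106). Rheb, the small GTPase that activates TOR, rose, with 110.2 to 128 CPM in combined H3K36R against 83.97 to 94.3 CPM in the control (log2 fold change 0.41 ± 0.10).

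Translation machinery did not move as 1 block. Of 18 cytosolic aminoacyl tRNA synthetase genes, 0 rose, 16 fell and 2 did not pass, with a median of -0.87. TrpRS, which charges tryptophan tRNA, had 15.03, 16.8, 22.7 and 18.6 CPM in the combined H3K36R libraries, against 32.1, 37.2, 47.5 and 39.9 CPM in the histone control libraries (-1.10 ± 0.17). The log2 fold change was -1.09 ± 0.21 at GluProRS, -1.03 ± 0.20 at ValRS and -1.01 ± 0.20 at SerRS. Each of these was lower in every combined H3K36R library than in any control library. Cytosolic ribosomal protein genes moved little: of 89, 2 rose (2.25%), 20 fell (22.47%) and 67 did not pass, with a median of -0.12. The share that fell was close to the 22.8% over all genes. The furthest down were RpLP0-like (-1.43) and the duplicate genes RpS14b (-1.06), RpS19b (-1.04) and RpS15Ab (-0.91). Near-identical copies leave the split of their reads uncertain. Counts of this list moved with the libraries used: 1 rose without combined H3K36R replicate 1 or 2 or control replicate 1, 2 or 3 and 12 fell without combined H3K36R replicate 2. With the length trend removed 9 rose and 13 fell. Of 40 initiation factor genes, 3 rose, 11 fell and 26 did not pass, and 0 rose without combined H3K36R replicate 2 and 1 rose without combined H3K36R replicate 1 or control replicate 1. In the other direction 9 rose with the length trend removed, and 5 with only the 8 libraries or with the replicate block. The gene eIF6, whose protein keeps the large ribosomal subunit from joining early, fell, with 19.4 to 29.8 CPM in combined H3K36R against 43.8 to 57.4 CPM in the control (log2 fold change -1.17 ± 0.21). The gene eIF2beta fell, with 69.1 to 115 CPM in combined H3K36R against 140.1 to 226 CPM in the control (log2 fold change -1.07 ± 0.19). The scaffold gene of the cap-binding complex, eIF4G1, fell, with 411 to 553 CPM in combined H3K36R against 756 to 904 CPM in the control (log2 fold change -0.84 ± 0.16).

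Nuclear genes for mitochondrial proteins fell almost as a whole. Mitochondria hold their own ribosomes, encoded mostly by nuclear genes, and the respiratory chain joins nuclear and mitochondrial subunits. Of 72 mitochondrial ribosomal protein genes, 0 rose, 71 fell and 1 did not pass, with a median of -0.98. The large subunit gene mRpL12 had 13.4, 14.4, 25.4 and 21.4 CPM in the combined H3K36R libraries, against 48.9, 49.5, 69.2 and 50.8 CPM in the histone control libraries (-1.55 ± 0.20, adjusted p = 3.21e-06). Log2 fold changes were -1.47 ± 0.15 at mRpL14, -1.46 ± 0.17 at mRpL48 and -1.45 ± 0.19 at mRpS6. In each of the 4 genes no combined H3K36R library reached the lowest control library. Of 77 nuclear genes of the respiratory chain, 0 rose, 69 fell and 8 did not pass, with a median of -0.88. ATPsynC, for the rotor ring of the ATP synthase, had 1415, 1266, 1867 and 1499.9 CPM in the combined H3K36R libraries, against 2598, 2651, 3037 and 2891 CPM in the histone control libraries (-0.89 ± 0.11). Log2 fold changes were -1.08 ± 0.12 at ATPsynO, and -1.17 ± 0.22 and -1.10 ± 0.11 at the complex I subunit genes ND-B22 and ND-13B. ATPsynepsilonL, a second epsilon subunit gene, fell, with 0.289 to 0.6401 CPM in combined H3K36R against 1.55 to 2.31 CPM in the control (log2 fold change -2.01 ± 0.32). The combined H3K36R libraries were below all 19 others at 68 of the 72 and 66 of the 77 genes.

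Central carbon metabolism genes fell too. All 14 tested genes of the TCA cycle and pyruvate dehydrogenase fell, with a median of -0.73. Of 13 glycolysis genes 0 rose, 12 fell and 1 did not pass, with a median of -0.57. Citrate synthase, encoded by kdn, had 661, 634, 762 and 694 CPM in the combined H3K36R libraries, against 1253, 1201, 1256 and 1233 CPM in the histone control libraries (-0.84 ± 0.07, adjusted p = 6.41e-09). On the log2 scale the change was -1.56 ± 0.15 at ScsbetaG, of succinyl-CoA synthetase, and -1.02 ± 0.10 at the aconitase gene mAcon1. The 2 chain genes of the pyruvate dehydrogenase E1 enzyme, Pdha and Pdhb, had -0.94 ± 0.10 and -0.84 ± 0.10. Gpdh1, for glycerol-3-phosphate dehydrogenase, had 234, 196, 315 and 286 CPM in the combined H3K36R libraries, against 724, 784, 575 and 523 CPM in the histone control libraries (-1.34 ± 0.18). Log2 fold changes were -0.89 ± 0.12 at Gapdh2, -0.73 ± 0.11 at the lactate dehydrogenase gene Ldh and -0.64 ± 0.10 at the enolase gene Eno. No group overlap was found at kdn or Gpdh1.

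RNA made inside mitochondria was a smaller share of the total. Genes of the mitochondrial genome took 1.24% ± 0.061 of all counts in combined H3K36R larvae and 1.77% ± 0.32 in histone control larvae (SD, n = 4 each), a difference of -0.54 ± 0.16 percentage points (SE). The shares were 1.24%, 1.15%, 1.29% and 1.27% in the combined H3K36R libraries, against 1.54%, 2.25%, 1.66% and 1.65% in the histone control libraries. The groups did not overlap, and the two-sided exact permutation p was 0.0286, the smallest that 4 against 4 can give, or 0.0357 adjusted over the 5 indices tested. Replicate 2 of the control was the highest library. The share did not pass without combined H3K36R replicate 1 or 2 (exact permutation, adjusted p = 0.0714 in each case). The difference was then -0.54 and -0.51 percentage points. With 3 libraries against 4 the exact p takes few values, so a miss there need not mean a smaller difference. Of 28 mitochondrially encoded genes tested, 0 rose, 10 fell and 18 did not pass, and 18 fell without control replicate 4. The cytochrome oxidase subunit gene mt:CoI had 2883, 2709.5, 3149.9 and 3069 CPM in the combined H3K36R libraries, against 4535, 5485, 4796 and 4789.9 CPM in the histone control libraries (-0.73 ± 0.09). On the log2 scale the change was -1.17 ± 0.14 at mt:CoII and -0.67 ± 0.08 at mt:CoIII.

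**Figure D2:**
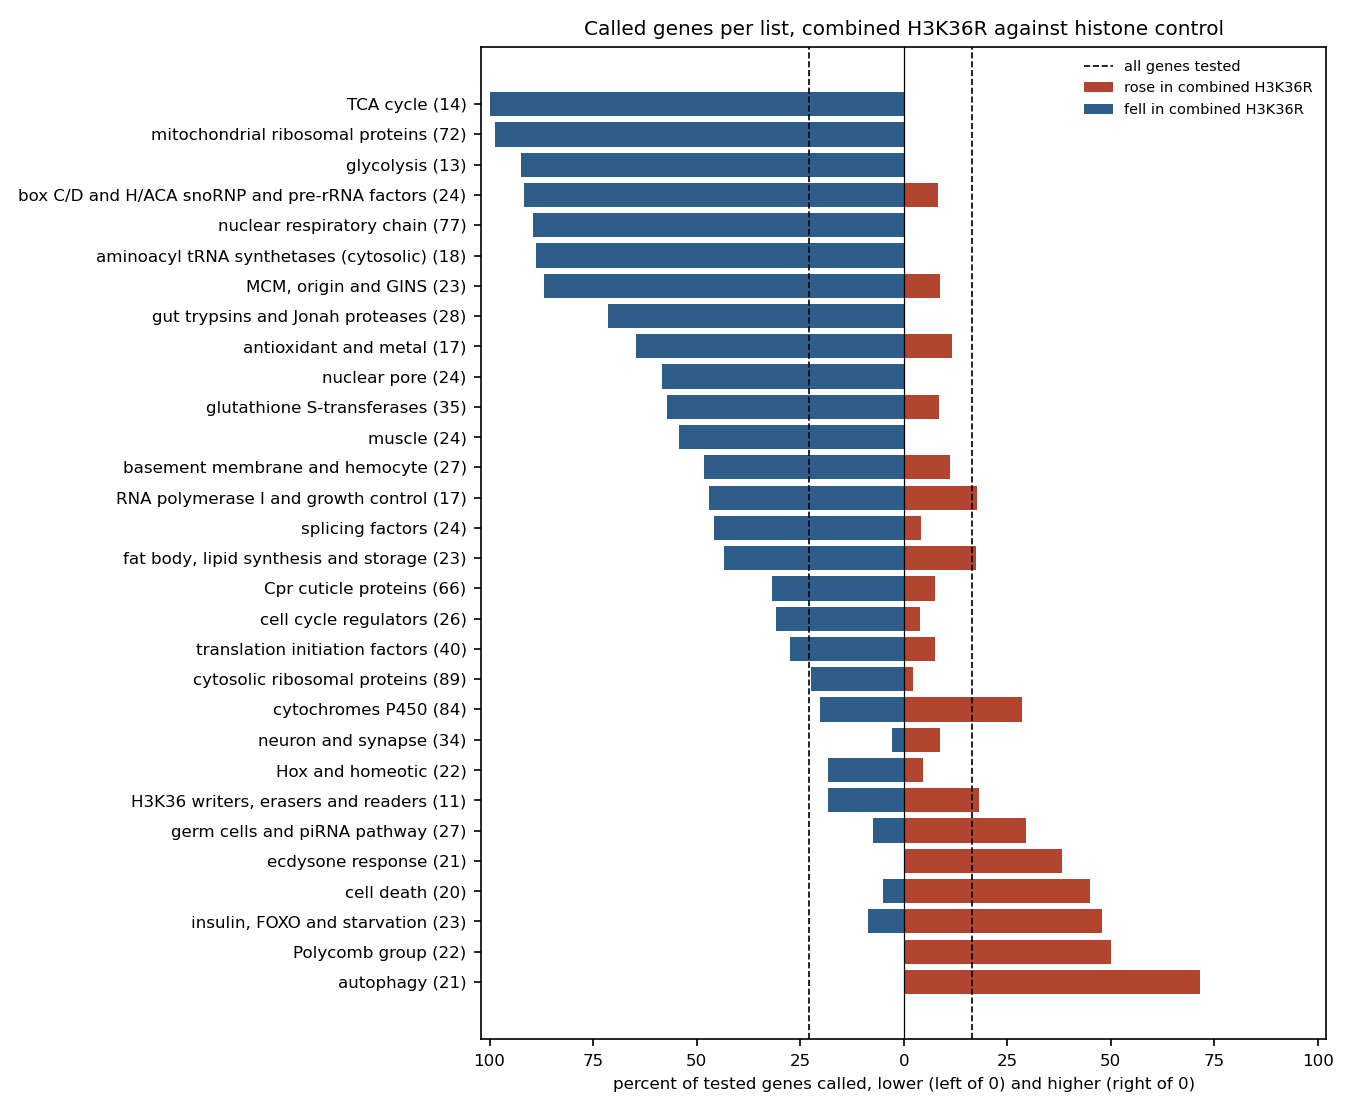
Percent of tested genes that rose (right of 0) and fell (left of 0) in combined H3K36R larvae relative to histone control larvae, for 30 gene lists with the number of tested genes after each name; dashed lines mark the 16.4% and 22.8% over all genes. The lists of mitochondrial, snoRNP and replication genes reach far left with little on the right, and autophagy and insulin genes reach right.

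Replication genes fell and most other cell cycle genes did not pass. The MCM helicase, the origin recognition complex and the GINS complex load and run the replicative helicase. Of 23 such genes with PCNA and ribonucleotide reductase, 2 rose, 20 fell and 1 did not pass, with a median of -1.22. PCNA, the sliding clamp, had 4.499, 5.63, 13.7 and 6.67 CPM in the combined H3K36R libraries, against 15.5, 27.3, 38.2 and 29 CPM in the histone control libraries (-1.85 ± 0.34, adjusted p = 0.000218). Orc2 had 0.601, 0.7704, 1.66 and 1.12 CPM in the combined H3K36R libraries, against 3.63, 3.19, 4.79 and 4.17 CPM in the histone control libraries (-1.92 ± 0.26). The ribonucleotide reductase genes RnrL and RnrS had log2 fold changes of -1.86 ± 0.36 and -1.47 ± 0.30. At PCNA and Orc2 every combined H3K36R library was below every control library. The 2 that rose did so by small amounts and lost their calls as libraries were left out: 0 rose without control replicate 1 and 1 rose without combined H3K36R replicate 3 or 4 or control replicate 2. Of 26 cell cycle regulator genes, 1 rose, 8 fell and 17 did not pass, and 4 fell without combined H3K36R replicate 1 or 4 and 5 fell without combined H3K36R replicate 2 or control replicate 2 or 3. Among them dap, for the inhibitor of cyclin E kinase, rose, with 32.6 to 41.8 CPM in combined H3K36R against 21.9 to 26.5 CPM in the control (log2 fold change 0.63 ± 0.08). The retinoblastoma gene Rbf fell, with 40.95 to 48.95 CPM in combined H3K36R against 55.6 to 79.9 CPM in the control (log2 fold change -0.65 ± 0.15). The chromatin assembly factor 1 deposits new H3 and H4 at replication forks. Its large subunit gene Caf1-180 fell, with 14.5 to 27.3 CPM in combined H3K36R against 32.2 to 50.8 CPM in the control (log2 fold change -1.14 ± 0.20). Its subunit gene Caf1-105 fell, with 4.25 to 7.11 CPM in combined H3K36R against 7.21 to 14.6 CPM in the control (log2 fold change -0.97 ± 0.20). The histone chaperone gene asf1 fell, with 11.2 to 17.6 CPM in combined H3K36R against 17.1 to 26.99 CPM in the control (log2 fold change -0.67 ± 0.18), and the groups overlapped. Lsm11, of the histone mRNA 3' end processing complex, fell, with 0.453 to 1.51 CPM in combined H3K36R against 1.197 to 2.14 CPM in the control (log2 fold change -1.04 ± 0.26).

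Many genes of fasting and autophagy rose. In fed larvae insulin signalling keeps the transcription factor FOXO out of the nucleus. FOXO targets include InR, Thor and the fat lipase genes bmm and Lip4. Of 23 insulin, FOXO and starvation genes, 11 rose, 2 fell and 10 did not pass, with a median of 0.41. The triglyceride lipase gene bmm had 285, 267, 201 and 204.5 CPM in the combined H3K36R libraries, against 96.7, 65.8, 81.8 and 128 CPM in the histone control libraries (1.36 ± 0.20, adjusted p = 2.03e-05). Lip4 had 28.4, 26.3, 25.9 and 28.4 CPM in the combined H3K36R libraries, against 13.4, 10.3, 9.1 and 13.2 CPM in the histone control libraries (1.25 ± 0.20). The insulin receptor gene InR had 982, 962, 749 and 741 CPM in the combined H3K36R libraries, against 546, 431, 379.6 and 530.0 CPM in the histone control libraries (0.86 ± 0.26). All 3 genes and Thor were higher in every combined H3K36R library than in any control library. ImpL2, whose secreted protein binds insulin-like peptides, rose, with 71.98 to 110.0 CPM in combined H3K36R against 39.1 to 57.3 CPM in the control (log2 fold change 0.92 ± 0.14). Hnf4, a nuclear receptor of lipid mobilization, rose, with 115 to 131 CPM in combined H3K36R against 78.02 to 92.9 CPM in the control (log2 fold change 0.48 ± 0.08). Against the direction of the list, the sugar-responsive zinc finger gene sug had 42.2, 39.7, 48.5 and 54.2 CPM in the combined H3K36R libraries, against 157, 158, 99.8 and 103 CPM in the histone control libraries (-1.49 ± 0.34). The gene srl, a fly PGC-1 relative linked to mitochondrial gene expression, fell, with 43.6 to 84.2 CPM in combined H3K36R against 122 to 178 CPM in the control (log2 fold change -1.39 ± 0.23).

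Of 21 autophagy genes, 15 rose, 0 fell and 6 did not pass, with a median of 0.44. The membrane-bound Atg8a had 489.9, 443, 378 and 380.4 CPM in the combined H3K36R libraries, against 256, 224, 211 and 251 CPM in the histone control libraries (0.84 ± 0.12, adjusted p = 1.41e-05). Atg9, a lipid scramblase gene of the growing autophagosome, rose, with 88.5 to 114 CPM in combined H3K36R against 43.4 to 59.4 CPM in the control (log2 fold change 1.04 ± 0.15). Atg18a rose, with 99.4 to 122 CPM in combined H3K36R against 50.1 to 62.6 CPM in the control (log2 fold change 0.98 ± 0.12). Atg17, of the initiating kinase complex, rose, with 282 to 351 CPM in combined H3K36R against 145 to 187 CPM in the control (log2 fold change 0.92 ± 0.14). In 13 of the 21 genes the combined H3K36R libraries lay above all 19 others. Vacuolar ATPase genes, whose product acidifies lysosomes, went the other way: of 27, 1 rose, 12 fell and 14 did not pass. Vha14-1 fell, with 127 to 148 CPM in combined H3K36R against 181 to 200.4 CPM in the control (log2 fold change -0.48 ± 0.09). The accessory gene VhaAC45RP rose, with 42.98 to 52.6 CPM in combined H3K36R against 29.5 to 33.5 CPM in the control (log2 fold change 0.58 ± 0.11).

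Genes of fat synthesis and lipid transport held more falls than rises. Of 23 fat body and lipid genes, 4 rose, 10 fell and 9 did not pass, with a median of -0.53. The lipoprotein gene apolpp had 885, 709, 1593 and 1286 CPM in the combined H3K36R libraries, against 3481, 4171, 4514 and 4379.7 CPM in the histone control libraries (-1.89 ± 0.19, adjusted p = 1.34e-07). Fatty acid synthase FASN1 had 1242, 1062, 1437 and 1531 CPM in the combined H3K36R libraries, against 3401, 4302, 3091 and 2455 CPM in the histone control libraries (-1.33 ± 0.23). The pyruvate carboxylase gene PCB fell, with 156 to 276 CPM in combined H3K36R against 541 to 639 CPM in the control (log2 fold change -1.50 ± 0.13). Each of these was lower in all combined H3K36R libraries than in any control library. SREBP, the activator of fatty acid synthesis genes, rose, with 399 to 436 CPM in combined H3K36R against 279 to 307 CPM in the control (log2 fold change 0.50 ± 0.07). Lpin, for the lipin phosphatase, rose, with 338 to 401 CPM in combined H3K36R against 201 to 286 CPM in the control (log2 fold change 0.70 ± 0.14). The summed level of 3 fat body markers tested was 709 to 1593 CPM in combined H3K36R libraries and 3482 to 4514 CPM in control libraries, with 2 of them under 1 CPM in both groups. The part of fat body cell number in these falls was not tested.

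Stress genes were split. Of 13 genes of the integrated stress response and of protein folding in the endoplasmic reticulum and mitochondria, 4 rose, 8 fell and 1 did not pass. The mitochondrial chaperonin gene Hsp60A had 90.99, 95.3, 207 and 129 CPM in the combined H3K36R libraries, against 314, 379, 549 and 381 CPM in the histone control libraries (-1.63 ± 0.27). Hsc70-3, for the chaperone of the endoplasmic reticulum, had 243, 227, 553 and 316 CPM in the combined H3K36R libraries, against 593, 956, 1241 and 901 CPM in the histone control libraries (-1.46 ± 0.31). The mitochondrial Hsc70-5 fell, with 119 to 206 CPM in combined H3K36R against 315 to 439.6 CPM in the control (log2 fold change -1.28 ± 0.18). In the other direction Xbp1, for the transcription factor of the unfolded protein response, rose, with 672 to 887 CPM in combined H3K36R against 408 to 459 CPM in the control (log2 fold change 0.87 ± 0.10). The kinase gene Gcn2 rose, with 45.98 to 54.4 CPM in combined H3K36R against 32.2 to 42.4 CPM in the control (log2 fold change 0.42 ± 0.09). The log2 fold change of trbl was 0.47 ± 0.14, and Thor, given above, also rose. Among 19 heat shock genes, 1 rose, 4 fell and 14 did not pass, and 0 to 3 rose and 4 to 7 fell over the alternatives run. The cytosolic chaperone Hsp83, the fly Hsp90, had 203, 167, 500.1 and 245 CPM in the combined H3K36R libraries, against 461, 976, 1391 and 984 CPM in the histone control libraries (-1.77 ± 0.44, adjusted p = 0.0031). Combined H3K36R replicate 3 overlapped the control. Of 32 proteasome genes, 0 rose, 6 fell and 26 did not pass, but 2 to 20 fell over the alternatives: 2 fell without combined H3K36R replicate 1 or control replicate 3, 3 fell without combined H3K36R replicate 2 or 4 or control replicate 2 or 4 and 17 fell without combined H3K36R replicate 3. Among the called genes Prosalpha4 and Prosbeta7 had the largest log2 fold changes, -1.07 ± 0.26 and -0.88 ± 0.18.

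Detoxification genes moved in both directions. Of 17 antioxidant and metal-binding genes, 2 rose, 11 fell and 4 did not pass, with a median of -0.64, and 1 rose without combined H3K36R replicate 1 or 2 or control replicate 1, 3 or 4. The metallothionein gene MtnB had 2.903, 3.36, 3.73 and 6.78 CPM in the combined H3K36R libraries, against 22.8, 22.4, 14.96 and 21.5 CPM in the histone control libraries (-2.28 ± 0.26). MtnE fell, with 4.65 to 8.69 CPM in combined H3K36R against 16.1 to 47.1 CPM in the control (log2 fold change -2.24 ± 0.30). MtnD fell, with 5.71 to 7.796 CPM in combined H3K36R against 12.6 to 32.7 CPM in the control (log2 fold change -1.85 ± 0.34). Gclm, of the enzyme that starts glutathione synthesis, fell, with 29.1 to 45.8 CPM in combined H3K36R against 79.4 to 107 CPM in the control (log2 fold change -1.39 ± 0.14). The ferritin light chain gene Fer2LCH rose, with 592 to 695 CPM in combined H3K36R against 479 to 564 CPM in the control (log2 fold change 0.30 ± 0.07). Of 35 glutathione S-transferase genes, 3 rose, 20 fell and 12 did not pass, with a median of -0.64. GstE9 fell, with 3.66 to 10.5 CPM in combined H3K36R against 13.9 to 26.3 CPM in the control (log2 fold change -1.68 ± 0.27). GstD2 fell, with 2.49 to 5.11 CPM in combined H3K36R against 9.77 to 11.4 CPM in the control (log2 fold change -1.45 ± 0.23). GstT4 rose, with 116 to 156 CPM in combined H3K36R against 39.3 to 63.7 CPM in the control (log2 fold change 1.44 ± 0.27). Cytochrome P450 genes held more rises than falls: of 84 tested, 24 rose, 17 fell and 43 did not pass, with a median of 0.19. Cyp6t1, on the X at X:21517434-21519218, had 2.52, 2.28, 3.25 and 4.202 CPM in the combined H3K36R libraries, against 0.159, 0.197, 0.0968 and 0.128 CPM in the histone control libraries (4.39 ± 0.40, adjusted p = 4.65e-08). Its other means were 1.62 CPM in H3.3K36R alone, 0.0816 in H4K16R, 0.158 in the Set2 mutant and 1.91 in yw. Cyp28d2 fell, with 14.1 to 23.6 CPM in combined H3K36R against 73.4 to 108 CPM in the control (log2 fold change -2.10 ± 0.16). Of 34 UDP-glucuronosyltransferase genes, 7 rose, 10 fell and 17 did not pass. The log2 fold change was 1.85 ± 0.19 at Ugt35C1 and -1.86 ± 0.35 at Ugt37B1. Ugt35C1 averaged 25.1 CPM in combined H3K36R, 45.4 in H3.3K36R alone, 10.05 in H4K16R, 48.7 in the Set2 mutant and 9.735 in yw.

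**Figure D3:**
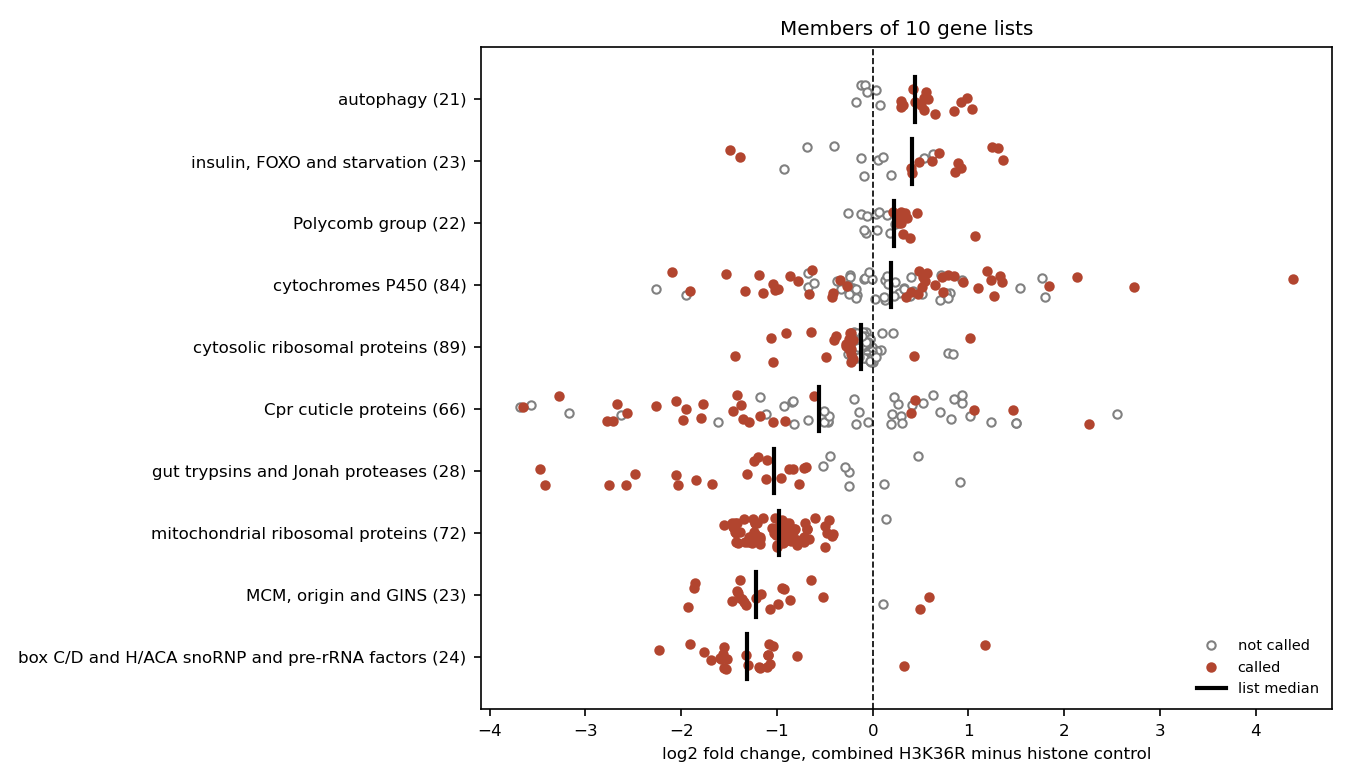
Log2 fold change, combined H3K36R minus histone control, of each tested member of 10 gene lists; filled points are called genes, open points are not called, vertical ticks are list medians and the dashed line is 0. Mitochondrial ribosomal protein genes lie in a narrow band below 0 with 1 exception, trypsin and P450 genes are spread widely and most autophagy genes lie above 0.

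Most gut protease genes fell. Of 28 trypsin and Jonah protease genes, 0 rose, 20 fell and 8 did not pass, with a median of -1.03 and the leading members given above. DESeq2 called 1 rise, the fit without combined H3K36R replicate 4 called 1, the fit with the length trend removed called 2, and 2 genes rose at an unadjusted p below 0.05. Of 46 other digestive genes, 6 rose, 19 fell and 21 did not pass. LysB fell, with 13.7 to 28.9 CPM in combined H3K36R against 88.7 to 111 CPM in the control (log2 fold change -2.41 ± 0.40). Npc2c, of a sterol-binding protein family, rose, with 34.01 to 37.2 CPM in combined H3K36R against 7.86 to 12.03 CPM in the control (log2 fold change 1.90 ± 0.28). The maltase gene Mal-B2 rose, with 32.1 to 38.5 CPM in combined H3K36R against 9.59 to 10.6 CPM in the control (log2 fold change 1.80 ± 0.20). The 4 midgut markers include thetaTry and Jon65Ai, so they are no measure apart from the protease list. Of the 4, 0 rose and 2 fell. They summed to 892 to 1036 CPM in combined H3K36R libraries and 1002 to 1178 CPM in control libraries, which overlapped.

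Cuticle genes of the larval epidermis fell more often than they rose, as did all genes tested (22.8% fell and 16.4% rose). Of 66 Cpr genes, which encode chitin-binding cuticle proteins, 5 rose (7.58%), 21 fell (31.82%) and 40 did not pass. Their median was -0.56. Cpr67Fa1 had 1.02, 0.9896, 1.48 and 1.98 CPM in the combined H3K36R libraries, against 11.3, 13.2, 14.5 and 14.03 CPM in the histone control libraries (-3.27 ± 0.23, adjusted p = 1.65e-09), with every combined H3K36R library below all others. Cpr67Fa2, its neighbour, fell, with 3.11 to 6.14 CPM in combined H3K36R against 24.7 to 31.8 CPM in the control (log2 fold change -2.67 ± 0.23). Cpr62Bc fell, with 2.94 to 4.07 CPM in combined H3K36R against 11.98 to 25.7 CPM in the control (log2 fold change -2.57 ± 0.41). Cpr92F fell, with 0.285 to 0.476 CPM in combined H3K36R against 0.964 to 11.9 CPM in the control (log2 fold change -3.66 ± 0.92). Without control replicate 1 it fell by 2.71 on the log2 scale. Cpr72Ec rose, with 1.85 to 2.91 CPM in combined H3K36R against 0.218 to 0.723 CPM in the control (log2 fold change 2.26 ± 0.39). Cpr49Af rose, with 28.2 to 43.2 CPM in combined H3K36R against 9.14 to 17.6 CPM in the control (log2 fold change 1.46 ± 0.24). Of 47 Lcp, Tweedle and other cuticle genes, 0 rose, 14 fell (29.79%) and 33 did not pass. With only the 8 libraries in the fit 4 rose. Lcp65Ag1 had 16.1, 10.8, 64.5 and 20.2 CPM in the combined H3K36R libraries, against 163, 119, 275 and 248 CPM in the histone control libraries (-2.85 ± 0.53). Combined H3K36R replicate 3 was the highest of its group, and without it the log2 fold change was -3.66. Lcp65Ag1 and Lcp65Ag2 are near-identical, so their reads may be split. The log2 fold change of Lcp65Ag2 was -1.71 ± 0.24. Of 30 chitin and barrier genes, 7 rose, 13 fell and 10 did not pass, and 3 rose without control replicate 3 and 4 rose without combined H3K36R replicate 1 or 2 or control replicate 2 or 4. The chitinase gene Cht5 fell, with 3.29 to 6.05 CPM in combined H3K36R against 9.34 to 17.5 CPM in the control (log2 fold change -1.47 ± 0.41). The chitin-binding obst-A fell, with 36.1 to 47 CPM in combined H3K36R against 74.4 to 129.7 CPM in the control (log2 fold change -1.32 ± 0.31). The tyrosine hydroxylase gene ple, of cuticle hardening and dopamine synthesis, fell, with 29.2 to 33.9 CPM in combined H3K36R against 61.3 to 85.2 CPM in the control (log2 fold change -1.25 ± 0.12).

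Ecdysone, the steroid that times moulting, acts through the receptor EcR. Of 21 ecdysone response genes, 8 rose, 0 fell and 13 did not pass, with a median of 0.29, and 5 rose without combined H3K36R replicate 2 or control replicate 2. Eip74EF, an early ecdysone-induced ETS factor gene, had 38.2, 36.7, 25.5 and 23.9 CPM in the combined H3K36R libraries, against 8.22, 8.89, 8.82 and 10.3 CPM in the histone control libraries (1.78 ± 0.19, adjusted p = 3.01e-07). EcR had 204.6, 203, 178 and 169 CPM in the combined H3K36R libraries, against 125, 111, 117 and 137 CPM in the histone control libraries (0.62 ± 0.11). The gene ftz-f1, for a nuclear receptor that sets competence to respond, rose, with 60.1 to 76.3 CPM in combined H3K36R against 40.4 to 48.2 CPM in the control (log2 fold change 0.65 ± 0.19). At Eip74EF and EcR the groups did not overlap. Of hormone synthesis and breakdown genes, Cyp18a1, for the enzyme that inactivates ecdysone, rose, with 98.6 to 143 CPM in combined H3K36R against 33.4 to 69.1 CPM in the control (log2 fold change 1.10 ± 0.25). The gene spok, of the synthetic pathway, fell, with 2.35 to 4.17 CPM in combined H3K36R against 5.54 to 7.43 CPM in the control (log2 fold change -1.11 ± 0.16).

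Cell type genes differed in direction. Of 24 muscle genes, 0 rose, 13 fell and 11 did not pass, with a median of -0.37. The troponin C genes TpnC47D and TpnC25D had log2 fold changes of -0.88 ± 0.16 and -0.86 ± 0.12. Among 34 neuron and synapse genes, 3 rose, 1 fell and 30 did not pass, but 10 rose when the fit held only the 8 libraries. In the main fit 8.82% rose and 2.94% fell, below the 16.4% and 22.8% over all genes. The synaptic vesicle gene nSyb had 474, 452, 406 and 443 CPM in the combined H3K36R libraries, against 299, 313, 271 and 325 CPM in the histone control libraries (0.55 ± 0.13, adjusted p = 0.00129). Of 39 neuropeptide genes, 7 rose (17.95%), 8 fell (20.51%) and 24 did not pass, close to the shares over all genes. The hormone gene Akh rose, with 6.36 to 10.5 CPM in combined H3K36R against 5.14 to 6.18 CPM in the control (log2 fold change 0.65 ± 0.18). The neuropeptide gene Crz fell, with 2.33 to 2.92 CPM in combined H3K36R against 3.36 to 5.71 CPM in the control (log2 fold change -0.74 ± 0.18). Among 18 glia genes, 2 rose, 6 fell and 10 did not pass. Among them wrapper, of glia that wrap midline axons, fell, with 0.869 to 2.29 CPM in combined H3K36R against 3.57 to 4.95 CPM in the control (log2 fold change -1.61 ± 0.21). Summed CPM of 4 markers was 1327 to 1516 in combined H3K36R and 1067 to 1263 in the control for neurons. For glia it was 847 to 963 in combined H3K36R and 943 to 1068 in the control, and for muscle 11535 to 13907 in combined H3K36R and 13115 to 17653 in the control. The marker sums of neurons did not overlap between the groups. Of the 4 neuron markers, 1 rose, which was nSyb, given above, and 0 fell.

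Basement membrane and hemocyte genes moved in both directions. Of 27 genes in this list, 3 rose, 13 fell and 11 did not pass, with a median of -0.61. The collagen IV gene Col4a1 fell, with 1014 to 1634 CPM in combined H3K36R against 3161 to 3235 CPM in the control (log2 fold change -1.29 ± 0.11). The other collagen IV gene, vkg, fell, with 678 to 1073 CPM in combined H3K36R against 2052 to 2082 CPM in the control (log2 fold change -1.25 ± 0.11). The nidogen gene Ndg had 89.5, 91.1, 145 and 104 CPM in the combined H3K36R libraries, against 297, 194, 327 and 329.8 CPM in the histone control libraries (-1.42 ± 0.25), with no overlap. The prolyl hydroxylase genes PH4alphaSG1 and PH4alphaSG2 had log2 fold changes of -1.26 ± 0.15 and -1.26 ± 0.15. The hemolectin gene Hml of hemocytes rose, with 248 to 288 CPM in combined H3K36R against 185 to 206 CPM in the control (log2 fold change 0.45 ± 0.10). The hemocyte scavenger receptor gene Sr-CI rose, with 34.1 to 39.99 CPM in combined H3K36R against 23.03 to 25.2 CPM in the control (log2 fold change 0.60 ± 0.08). The summed level of 4 hemocyte markers was 286 to 340 CPM in combined H3K36R libraries and 258 to 284 CPM in control libraries. Most of that sum was Hml itself. Of the 4 markers, 1 rose, which was Hml, and 1 fell.

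Cell death genes mostly rose where they were called. Of 20 tested, 9 rose, 1 fell and 10 did not pass, with a median of 0.38, and 2 fell without control replicate 2. The death inducer hid had 10.9, 12.6, 11.99 and 10.2 CPM in the combined H3K36R libraries, against 4.82, 5.65, 4.398 and 4.59 CPM in the histone control libraries (1.24 ± 0.19, adjusted p = 2.26e-05), and every combined H3K36R library was higher than every control library. The effector caspase gene Drice rose, with 19.2 to 26.6 CPM in combined H3K36R against 14.2 to 16.2 CPM in the control (log2 fold change 0.57 ± 0.13). Its inhibitor Diap1 rose, with 211 to 235 CPM in combined H3K36R against 156 to 194 CPM in the control (log2 fold change 0.39 ± 0.11). The TNF receptor gene wgn rose, with 68.1 to 88.4 CPM in combined H3K36R against 54.7 to 60.9 CPM in the control (log2 fold change 0.47 ± 0.09). The caspase gene Damm fell, with 2.01 to 3.85 CPM in combined H3K36R against 5.63 to 7.93 CPM in the control (log2 fold change -1.11 ± 0.26). Of 20 DNA damage and p53 response genes, which also hold hid, 5 rose, 0 fell and 15 did not pass, and 8 rose under RLE factors, DESeq2 or removal of the length trend. The double-strand break repair gene mre11 rose, with 30.96 to 37.8 CPM in combined H3K36R against 21.5 to 24.6 CPM in the control (log2 fold change 0.53 ± 0.10). Its partner gene nbs rose, with 19.1 to 22.8 CPM in combined H3K36R against 13.9 to 17.3 CPM in the control (log2 fold change 0.47 ± 0.09). Xrp1, a p53 target, rose, with 1181 to 1279 CPM in combined H3K36R against 836 to 1039 CPM in the control (log2 fold change 0.38 ± 0.09).

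Immune genes showed no common direction. Of 30 antimicrobial peptide genes, 2 rose, 3 fell and 25 did not pass. The bomanin gene BomS4 rose, with 5.83 to 9.05 CPM in combined H3K36R against 1.69 to 3.51 CPM in the control (log2 fold change 1.60 ± 0.47). Dro, for the peptide drosocin, had 2.29, 3.02, 0.906 and 2.89 CPM in the combined H3K36R libraries, against 14.5, 23.7, 12.6 and 12.4 CPM in the histone control libraries (-2.79 ± 1.00, adjusted p = 0.0342). The call of Dro was lost without any 1 combined H3K36R library, without control replicate 2 and without both replicates numbered 3 (adjusted p = 0.06 to 0.104). Of 23 peptidoglycan recognition and Imd or Toll genes, 6 rose, 9 fell and 8 did not pass. PGRP-SC2, an amidase gene, fell, with 134 to 179.6 CPM in combined H3K36R against 364 to 422 CPM in the control (log2 fold change -1.33 ± 0.20). Its other means were 243 CPM in H3.3K36R alone, 478 in H4K16R, 203 in the Set2 mutant and 32.3 in yw. The receptor gene PGRP-LC rose, with 48.1 to 56.01 CPM in combined H3K36R against 30.9 to 37.5 CPM in the control (log2 fold change 0.55 ± 0.08). PGRP-LF, which blocks that receptor, rose, with 21.4 to 26.6 CPM in combined H3K36R against 8.104 to 13.1 CPM in the control (log2 fold change 1.17 ± 0.22). The NF-kappaB factor gene Rel rose, with 209 to 279 CPM in combined H3K36R against 153 to 159 CPM in the control (log2 fold change 0.64 ± 0.11).

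Among chromatin genes, the Polycomb group held rises and no falls. Polycomb complexes silence developmental genes such as the Hox genes, and methylated H3K36 is known to inhibit the Polycomb methyltransferase in vitro. Of 22 Polycomb group genes, 11 rose, 0 fell and 11 did not pass, with a median of 0.22. Su(z)2, a paralog of the Polycomb subunit gene Psc, had 227, 219.6, 177 and 172 CPM in the combined H3K36R libraries, against 97.1, 90.1, 88.3 and 104 CPM in the histone control libraries (1.07 ± 0.12, adjusted p = 4.39e-07). Psc rose, with 65 to 75.6 CPM in combined H3K36R against 51.7 to 59.8 CPM in the control (log2 fold change 0.36 ± 0.10). The gene ph-d rose, with 42.8 to 51.05 CPM in combined H3K36R against 33.6 to 40.3 CPM in the control (log2 fold change 0.39 ± 0.09). Asx, of the deubiquitinase complex, rose, with 136 to 149 CPM in combined H3K36R against 96.5 to 109 CPM in the control (log2 fold change 0.46 ± 0.07). Su(z)2 did not overlap between groups. Of 20 Trithorax group genes, which counter Polycomb, 6 rose, 3 fell and 11 did not pass. The founding member trx rose, with 594 to 688 CPM in combined H3K36R against 392 to 477 CPM in the control (log2 fold change 0.60 ± 0.13). The demethylase gene Utx rose, with 56.8 to 66.2 CPM in combined H3K36R against 34.5 to 39.9 CPM in the control (log2 fold change 0.74 ± 0.09). The gene wds, for a subunit shared with the NSL complex, fell, with 15.4 to 19.2 CPM in combined H3K36R against 30.8 to 40.7 CPM in the control (log2 fold change -1.13 ± 0.14).

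Genes in a list of Hox, homeotic and other patterning genes mostly did not pass. The list is wider than the Hox genes and holds the signal gene hh. Of its 22 genes, 1 rose, 4 fell, hh among them, and 17 did not pass. Its median was close to 0, with a sign that changed with the scaling. Among the fits that left out a library, 3 rose without control replicate 1 and 2 fell without combined H3K36R replicate 3. Abd-B, the most posterior Hox gene, had 119, 116, 99.5 and 106 CPM in the combined H3K36R libraries, against 67.4, 67.9, 66.98 and 73.3 CPM in the histone control libraries (0.67 ± 0.11, adjusted p = 3.07e-05), all 4 above every control library. The Hedgehog signal gene hh fell, with 4.72 to 6.21 CPM in combined H3K36R against 10.2 to 12.1 CPM in the control (log2 fold change -1.08 ± 0.18). Of 22 heterochromatin genes, 5 rose, 3 fell and 14 did not pass. Su(var)3-9, the H3K9 methyltransferase gene, fell, with 6.25 to 7.73 CPM in combined H3K36R against 12.5 to 16.2 CPM in the control (log2 fold change -0.94 ± 0.14). With libraries left out, 1 rose without combined H3K36R replicate 1 or control replicate 2, 2 rose without control replicate 1 or 3, 3 rose without combined H3K36R replicate 2 or 3 and 1 fell without control replicate 3. Of 24 nuclear pore genes, 0 rose, 14 fell and 10 did not pass, with a median of -0.56. Nup154 fell, with 25.4 to 34.4 CPM in combined H3K36R against 41.1 to 71.5 CPM in the control (log2 fold change -0.92 ± 0.19). Of 24 splicing factor genes, 1 rose, 11 fell and 12 did not pass, and 7 fell without combined H3K36R replicate 1 or control replicate 3. The branch site factor gene Sf3b3 fell, with 72.4 to 102 CPM in combined H3K36R against 143 to 187 CPM in the control (log2 fold change -0.95 ± 0.15).

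Germline genes rose in part. In the germline, piRNAs guide the silencing of transposons, and Rhino, Deadlock and Moonshiner let piRNA clusters be transcribed from heterochromatin. Of 27 germ cell and piRNA genes, 8 rose, 2 fell and 17 did not pass, with a median of 0.03, and 1 fell without combined H3K36R replicate 1, 2 or 4. Besides blanks and krimp, the Tudor-domain gene SoYb rose, with 4.53 to 6.36 CPM in combined H3K36R against 1.66 to 2.15 CPM in the control (log2 fold change 1.46 ± 0.22). The germline stem cell gene stwl rose, with 35.98 to 41.4 CPM in combined H3K36R against 14.3 to 19.5 CPM in the control (log2 fold change 1.16 ± 0.10). The cluster transcription genes were named after their values were seen. The Rhino gene rhi had 10.6, 10.4, 10.3 and 8.703 CPM in the combined H3K36R libraries, against 6.34, 3.83, 4.73 and 6.48 CPM in the histone control libraries (0.90 ± 0.20). The Deadlock gene del rose, with 6.398 to 8.03 CPM in combined H3K36R against 3.41 to 4.17 CPM in the control (log2 fold change 0.90 ± 0.16). The Moonshiner gene moon rose, with 1.604 to 2.03 CPM in combined H3K36R against 0.0455 to 0.1798 CPM in the control (log2 fold change 4.28 ± 0.99). The germ cell marker vas had a log2 fold change of -0.01 ± 0.17 (adjusted p = 0.984). Together 2 germ cell markers tested summed to 3.67 to 5.38 CPM in combined H3K36R libraries and 3.76 to 4.78 CPM in control libraries. Of 22 testis-specific genes, which hold mfr and SteXh:CG42398, 4 rose, 3 fell and 15 did not pass. Summed over 3 testis markers, levels were 1.3 to 1.5 CPM in combined H3K36R libraries and 0.857 to 1.17 CPM in control libraries.

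Genes of the Y chromosome were low in level and mostly rose where they were called. The Y is carried by males and its few protein-coding genes are used mainly in the male germline. Of 43 Y genes tested, 11 of them protein-coding, 19 rose and 1 fell, with a median log2 fold change of 2.46, and 6 had 0 counts in all 4 control libraries. With those 6 at their lower bound, from a floor of 3 counts over the group, the median was also 2.46. The filter chose these genes in part by the combined H3K36R libraries: 28 of the 43 reach its cut in 3 of the other 19 libraries, and the other 15 passed only with the combined H3K36R libraries counted. The count and median over the 43 are therefore a description. Of the 28, 8 rose and 1 fell, with a median of 1.40. Levels were low, since 4 of the 43 reached a mean of 1 CPM, and their summed level was 24.7 to 32.8 CPM in combined H3K36R libraries and 10.9 to 18.1 CPM in control libraries. The dynein heavy chain gene kl-3 had 2.46, 3.85, 2.301 and 2.58 CPM in the combined H3K36R libraries, against 0.0837, 0.251, 0.0553 and 0.121 CPM in the histone control libraries (4.45 ± 0.78, adjusted p = 0.000101). A second dynein heavy chain gene, kl-2, had 2.43, 3.15, 2.14 and 3.15 CPM in the combined H3K36R libraries, against 0.251, 0.288, 0.263 and 0.0767 CPM in the histone control libraries (3.63 ± 0.55). In both the combined H3K36R libraries were all above the control. FDY, the single gene that fell, had 3.06, 3.63, 3.999 and 3.63 CPM in the combined H3K36R libraries, against 6.55, 9.97, 9.54 and 12.7 CPM in the histone control libraries (-1.43 ± 0.35, adjusted p = 0.00253). FDY averaged 13.1 CPM in H3.3K36R alone, 9.725 in H4K16R, 1.09 in the Set2 mutant and 0.391 in yw. The Y minus autosome index is the mean log2 CPM of Y genes less the mean over the 4 large autosomal arms (2L, 2R, 3L and 3R). It was -4.10 ± 0.19 in combined H3K36R larvae and -6.25 ± 0.26 in histone control larvae (SD, n = 4 each). The difference was 2.15 ± 0.16 (SE, two-sided exact permutation p = 0.0286, adjusted 0.0357). The choice of the 43 genes favours a positive value, so this p-value does not stand as a test. Over the 28 genes that pass without the combined H3K36R libraries, the index was -3.65 ± 0.17 in combined H3K36R larvae and -5.35 ± 0.41 in histone control larvae (SD, n = 4 each). That difference was 1.70 ± 0.22 (SE, two-sided exact permutation p = 0.0286, adjusted 0.0357). Over all 113 listed Y genes with no filter it was 1.18 ± 0.11, and their summed level was 25.6 to 34.3 CPM in combined H3K36R libraries and 11.3 to 18.4 CPM in control libraries. Without combined H3K36R replicate 1 or 2 the Y difference over the 43 genes did not pass (exact permutation, adjusted p = 0.0714). Its size was then 2.205 and 2.06. Over Y genes of at least 5 CPM, of which FDY was the single one, the difference was -1.24. The index averaged -6.11 in H3.3K36R alone, -6.36 in H4K16R, -7.82 in the Set2 mutant and -7.69 in yw.

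Sex ratio was not recorded in the labels. Beside the Y result, 4 male markers summed to 1567 to 2092 CPM in combined H3K36R libraries and 1190 to 1661 CPM in control libraries, which overlapped. Those markers include the roX RNAs of the dosage compensation complex. The RNA lncRNA:roX1 had 1497, 1992, 1625 and 1597 CPM in the combined H3K36R libraries, against 1309, 1304, 1099 and 1556 CPM in the histone control libraries (0.35 ± 0.15, adjusted p = 0.0673). The RNA lncRNA:roX2 had 67.3, 95.4, 79.7 and 89.5 CPM in the combined H3K36R libraries, against 122, 127, 90.8 and 105 CPM in the histone control libraries (-0.42 ± 0.18, adjusted p = 0.0629). Neither passed, and the groups overlapped at both. The part of the share of males in the Y and X values was not tested. Of 12 dosage compensation genes, 2 rose, 0 fell and 10 did not pass. With libraries left out, 1 fell without combined H3K36R replicate 3 or control replicate 1 or 3, and with only the 8 libraries in the fit 4 rose and 2 fell. The 2 that rose were msl-3, given above, and Clamp, for a protein that marks entry sites on the X. Clamp rose, with 78.2 to 84.4 CPM in combined H3K36R against 61.7 to 64.7 CPM in the control (log2 fold change 0.37 ± 0.06). Of 7 genes of the NSL acetyltransferase complex, 4 rose, 1 fell and 2 did not pass. Rcd5 rose, with 106 to 140.3 CPM in combined H3K36R against 45.3 to 60.5 CPM in the control (log2 fold change 1.23 ± 0.11). The log2 fold change of nsl1 was 0.47 ± 0.07, and wds, given above, was the one that fell.

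The X chromosome index was slightly higher in combined H3K36R. It was 0.501, 0.467, 0.472 and 0.449 in the combined H3K36R libraries, against 0.364, 0.345, 0.368 and 0.349 in the histone control libraries. The groups did not overlap, and the difference in mean log2 CPM between X and autosomes was 0.12 ± 0.01 (SE, exact permutation p = 0.0286, adjusted 0.0357). It did not pass without combined H3K36R replicate 1 or 2 (exact permutation, adjusted p = 0.0714), where it was 0.106 and 0.118. In the lowest quintile of expression the median log2 fold change was 0.56 for X genes and 0.16 for autosomal genes. It was -0.15 for X genes and -0.13 for autosomal genes in the middle quintile, and 0.07 and 0.00 in the top quintile. As for the Y, the count filter chose genes in part by the combined H3K36R libraries, which can favour positive values in the lowest quintile. The X index was not computed without that choice. With medians in place of means over genes the difference was -0.06, and over genes of at least 5 CPM it was 0.03. By calls, 19.61% of 2249 X genes rose and 22.68% fell. On the 4 autosomal arms 15.4% to 16.7% rose and 22.31% to 23.93% fell. The fourth chromosome index was 1.82 ± 0.08 in combined H3K36R larvae and 1.74 ± 0.07 in histone control larvae, and the difference of 0.08 ± 0.05 missed the threshold (exact permutation p = 0.229).

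**Figure D4:**
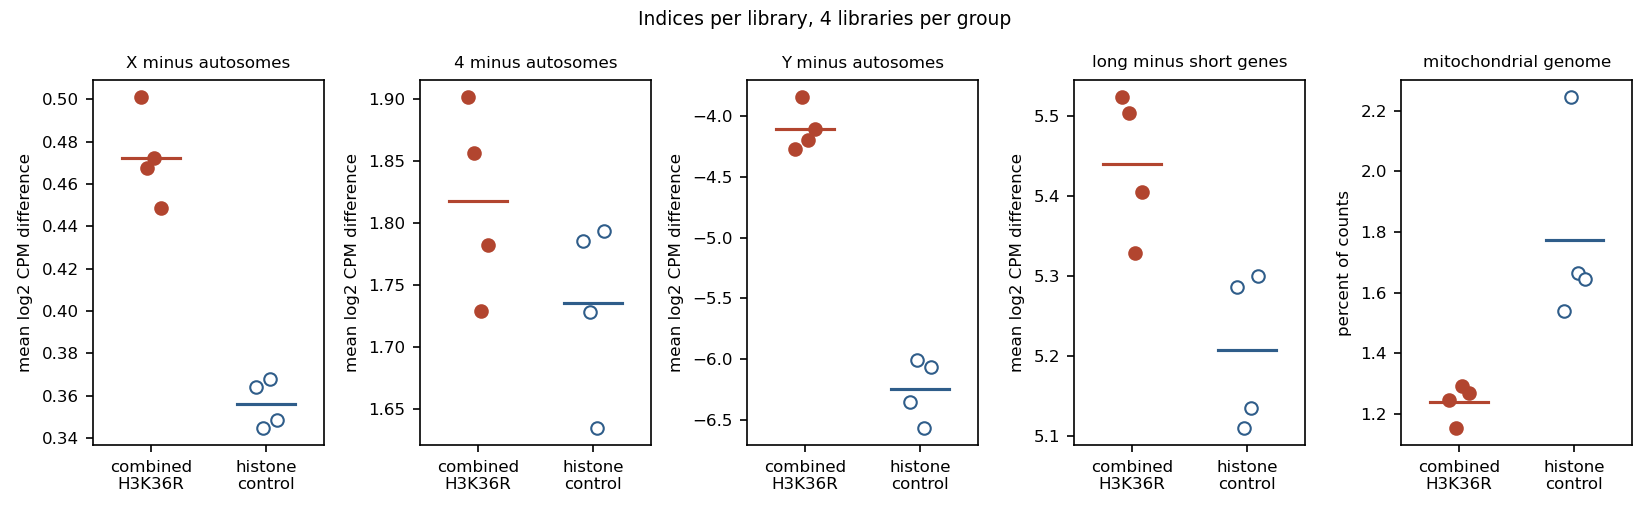
The 5 indices in each library, combined H3K36R (left, filled) and histone control (right, open), with group means as horizontal bars; the first 4 panels are differences of mean log2 CPM and the last is percent of counts. The groups are apart in the X, Y, long minus short gene and mitochondrial panels and overlap for the fourth chromosome. The genes of the Y panel were chosen in part by the combined H3K36R libraries, which favours a positive difference.

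Genes near centromeres were taken on their own. The stretches of each arm next to the centromere are packed as heterochromatin, in which some long genes are nevertheless transcribed. In proximal segments whose bounds were chosen after the data were examined, 68 of 230 autosomal genes rose (29.57%) and 35 fell (15.22%), beside 16.4% and 22.8% over all genes. The segment of 2L from 22 Mb had 22 rises and 3 falls among 44 genes, including Marf1. Those of the other arms had 24 rises and 16 falls among 110 genes on 2R, 17 rises and 10 falls among 61 on 3L, and 5 rises and 6 falls among 15 on 3R. On the X from 20 Mb, 50 of 180 genes rose (27.78%) and 34 fell (18.89%), among them lncRNA:CR46472, Cyp6t1, FucTC and CG1304. Changes of at least 4-fold were called at 13.39% of genes between 20 and 22 Mb and 11.32% between 22 and 24 Mb of the X. The X index difference without genes from 20 Mb up was 0.09.

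Shares of rises and falls differed by gene length. Trimethylated H3K36 builds up toward the 3' end of transcribed genes. Of 318 genes of at least 50 kb, 25.16% rose and 6.92% fell, with a median log2 fold change of 0.16, beside 16.4% and 22.8% over all genes. Of 3177 genes under 1 kb, 8.62% rose and 20.77% fell, with a median of -0.12. In the classes between, from short to long, 11.75%, 18.89%, 26.8%, 26.46% and 23.85% rose. The shares that fell in these classes were 26.92%, 25.26%, 22.64%, 17.5% and 11.35%. Among protein-coding genes in the top quintile of expression, 27.87% of those of at least 20 kb rose and 8.11% fell. Of those under 2 kb, 8.77% rose and 54.82% fell. The long minus short gene index was 5.44 ± 0.09 in combined H3K36R larvae and 5.21 ± 0.10 in histone control larvae (SD, n = 4 each). The difference was 0.23 ± 0.07 (SE, two-sided exact permutation p = 0.0286, adjusted 0.0357). Its libraries were at 5.52, 5.50, 5.33 and 5.40 in combined H3K36R, against 5.29, 5.11, 5.13 and 5.30 in the control, without overlap by a small margin. Over genes of at least 5 CPM the difference was 0.51. The difference in this index did not pass without combined H3K36R replicate 1 or 2 or control replicate 1, 2 or 3, or with medians over genes (exact permutation, adjusted p = 0.0714 in each case). Its size was 0.205 and 0.212 without those combined H3K36R libraries, and 0.259, 0.200 and 0.209 without those control libraries.

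**Figure D5:**
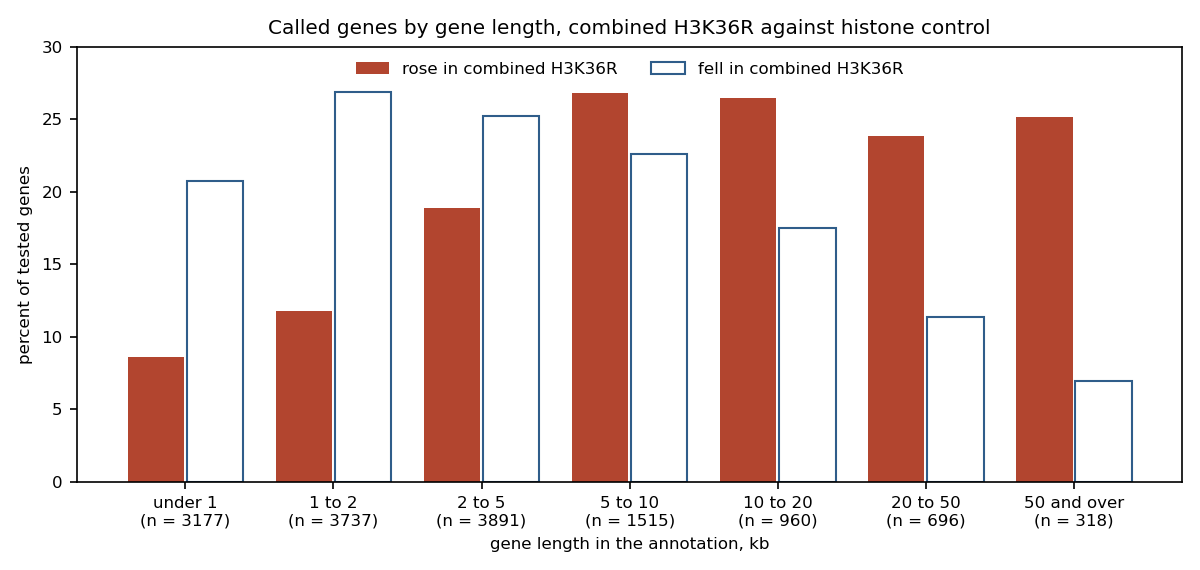
Percent of tested genes called higher (left bar, filled) and lower (right bar, open) in combined H3K36R larvae relative to histone control larvae, by gene length in the annotation. The share that fell is 20.77% to 26.92% below 5 kb and 6.92% at 50 kb and over, while the share that rose is 8.62% below 1 kb and 23.85% to 26.8% from 5 kb up.

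Shares by exon number and kind of gene are set beside the same 16.4% and 22.8%. Of genes with 1 exon 10.08% rose and 17.73% fell, and with 9 to 16 exons 28.1% rose and 14.39% fell. By kind of gene, 15.25% of 1534 noncoding RNA genes rose and 3.91% fell, with a median of 0.41. Of 167 pseudogenes 18.56% rose and 6.59% fell. Of 71 tRNA genes 6 fell, with a median of -0.74.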

How the data were processed

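Total RNA of whole first-instar larvae was sequenced in paired ends of 100 bp, per the labels. The authors deposited raw read counts per FlyBase gene, made with STAR 2.7.2a and Subread 2.0.3 per the submitters' processing notes. For overlapping, antisense or near-identical genes the values are uncertain, since the sources used here do not give the build, the annotation or the strand and multi-mapping settings. Of counts from 5 to below 20, 61.44% were even, against 50.12% from 1000 up, so small counts may be of read ends and not fragments, which was not tested. The BDGP6.54 annotation gave names, biotypes, lengths and positions for 17527 of 17606 identifiers. No genome sequence was used.

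Genes were kept by edgeR's filterByExpr (minimum count 10), scaled by TMM and fitted with 1 mean per group over all 23 libraries (edgeR 4.0.16, R 4.3.3; quasi-likelihood, robust, 17 residual degrees of freedom, common biological coefficient of variation 0.311), with Benjamini-Hochberg adjustment over 14365 genes. On simulated counts for this comparison, run on 14365 genes, the fit recovered 25.8% of 1.5-fold, 53% of 2-fold and 64.7% of 4-fold changes and called 4 of 14165 unchanged genes. Indices are differences of mean log2 CPM (prior count 2) with two-sided exact permutation tests. Alternatives were RLE factors, TMM from autosomal genes, no count filter, the 8 libraries alone, DESeq2 1.42.0, a replicate block, removal of length trends and leaving out libraries.

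The comparison, the 60 gene lists and the rule for named genes were chosen with earlier results of these data known. Named genes were the 15 leading rises and falls, the 10 lowest p, the 10 called genes of highest CPM, and for each list up to 4 called members with the largest change, the called member of highest CPM and members against the list's direction; not all of them are printed. CG12493, lncRNA:CR45585, NSD, vas, rhi, del, moon and the roX RNAs were added after their values were seen.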

Additional observations from a re-analysis of the deposited data

Results flagged for a closer look

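In each group of 4 libraries the highest or lowest library was set against the other 3 of its group, for every gene named in the text and for the 5 indices. The gap passed Dixon's criterion for an outlying value in 20 of 436 groups tested (4.59%), close to the 1 in 20 that chance gives. Replicate 3 held 13 of the 20.

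In combined H3K36R larvae, replicate 3 had the highest level of the ribonucleotide reductase genes RnrL, at 19.1 CPM against 5.80 to 6.80 CPM in the others, and RnrS, at 26.0 against 11.9 to 12.5. It was also highest for the proteasome gene Prosbeta7 (34.8 CPM, others 24.5 to 24.8) and the ribosome maturation factor eIF6 (29.8, others 19.4 to 20.8), and lowest for CG7692 (125, others 136 to 137) and Lpin (338, others 394 to 401). Replicate 2 was highest for krimp (12.5, others 8.81 to 9.34), while replicate 4 was highest for Cpr62Bc (4.07, others 2.94 to 3.03) and lowest for rhi (8.70, others 10.3 to 10.6).

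In histone control larvae, replicate 3 was lowest for Thor, at 267 CPM against 379 to 404 CPM in the others, for MtnB (14.96, others 21.5 to 22.8), ND-13B (44.3, others 49.1 to 49.5) and del (3.41, others 4.10 to 4.17). It was highest for mRpL12 (69.2, others 48.9 to 50.8), PGRP-SC2 (422, others 364 to 372) and Su(var)3-9 (16.2, others 12.5 to 13). Replicate 1 was lowest for His3.3A (27.1, others 36.2 to 38.4) and Jon65Aii (97.9, others 149 to 156). Replicate 4 was highest for Abd-B (73.3, others 67.0 to 67.9) and lowest for kl-2 (0.0767, others 0.251 to 0.288).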

How the results depend on the processing

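The count of called genes stayed within 1.5 times of 5638 under every alternative run, from 4775 (without combined H3K36R replicate 2) to 6422 (only the 8 libraries), and rises made up 39.31% to 46.73% of calls. Of 207 called genes named in the text, 206 kept their call and direction in all of these fits, and Dro was the exception. Among 18 lists and directions with 0 calls, at most 2 genes passed an unadjusted p below 0.05 and DESeq2 called at most 1. Elsewhere such counts were not 0: with only the 8 libraries 4 Lcp and Tweedle genes rose, 2 dosage compensation genes fell, 1 Polycomb gene fell and 1 nuclear respiratory chain gene rose, and with the length trend removed 2 gut protease genes rose. The X minus autosome difference of 0.12 turned to -0.061 with medians over genes (adjusted p = 0.0476), and the Y difference of 2.15 to -1.24 over genes of at least 5 CPM, where FDY was the single Y gene left. It was 1.70 over the 28 Y genes that pass the count filter without combined H3K36R libraries and 1.18 over all 113 listed, both chosen after seeing the data. The 2.15, and the Y values with libraries left out, rest on genes chosen in part by the combined H3K36R libraries. The long minus short difference was 0.22 with medians (adjusted p = 0.0714) and 0.51 over genes of at least 5 CPM. With single libraries left out the differences ran from 0.11 to 0.12 for X, 2.04 to 2.23 for Y, 0.20 to 0.27 for long minus short genes and -0.61 to -0.38 for the mitochondrial share. Their adjusted p was 0.0357 to 0.0714: all 4 missed the threshold without combined H3K36R replicate 1 or 2, and long minus short genes also without control replicate 1, 2 or 3. With 3 libraries against 4 the exact p takes few values, so these misses need not mean smaller differences. The causes were not tested.

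With the replicate number as a block 5874 genes were called. Same-numbered libraries deviated together with r of 0.46, 0.12, 0.63 and 0.01 for replicates 1 to 4, and not every library correlated best with its own number, so the numbers are not shown to pair the samples. As differences within numbered pairs, X (0.12), Y (2.15), long minus short (0.23) and the mitochondrial share (-0.54) did not pass (adjusted p = 0.156), since 4 pairs allow no p under 0.125. A planned search for promoter motifs and its alternative were not run, as no genome sequence was used here.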
